A study of Mus musculus with 12 samples.

Results

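Ciita and the genes of MHC class II antigen presentation were followed in IEC4.1 cells, labelled as a mouse intestinal epithelial line, with and without IFN-γ and with and without knockdown of the long noncoding RNA Nostrill. The rule named 6 genes by symbol: Ciita, Cd74, H2-Aa, H2-Ab1, H2-Eb1 and H2-DMa. Of these, 4 were among the 15002 genes listed, and H2-Aa and H2-Ab1 were not analysed here. Of the 4, Ciita, Cd74 and H2-DMa passed the filter on low counts and were tested among 11900 genes, while H2-Eb1 did not pass. The 12 libraries fell into 4 groups of 3, all from wild-type cells. Cells received either scrambled siRNA (siR_Ctrl) or pooled siRNAs that target Nostrill (siR_Nostrill), and cells of each kind were left without IFN-γ (siR_Ctrl, siR_Nostrill) or were given it (siR_Ctrl + IFN-γ, siR_Nostrill + IFN-γ). By the methods of the paper, transfection took 24 h, and by a figure caption IFN-γ was given at 1 ng/ml for 4 h, while the labels give 24 h for every library. Nostrill itself was not analysed here, so its level was not used to check the labels. The cells come from 1 line, and the methods describe biological triplicates, while nothing in the labels says how far the cultures were separate.

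MHC class II molecules present peptides from the endosomes to CD4+ T cells. Their genes share a short promoter module, whose X and Y boxes are held by the RFX complex, CREB and NF-Y. Transcription starts in most cells only when CIITA, which does not bind DNA itself, joins these factors. In cells that are not professional antigen-presenting cells, intestinal epithelium among them, IFN-γ acts through JAK kinases and IRF1 to switch on Ciita first, and the class II genes follow. The related factor NLRC5 does the same for MHC class I genes.

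The promoters of these genes are shown because CIITA acts through a module in class II promoters. RefSeq windows ran from 250 bases before to 50 bases from a RefSeq start of a gene (GRCm38.p6, 5′ to 3′ on the strand of the gene). They were available for 3 of the 6 genes. A window each of H2-Eb1 and H2-DMa is shown, beside that of the further class II gene H2-DMb1. In the class II windows, capitals mark GATTGG (Y box core), GCAACNG (X box core) and AACTGATGATGCT, which is the longest run that the H2-Eb1 and H2-DMb1 windows have in common, was looked for after these sequences were seen, and overlaps GCAACNG in H2-Eb1.
H2-Eb1 (chr17:34305617-34305916, plus strand): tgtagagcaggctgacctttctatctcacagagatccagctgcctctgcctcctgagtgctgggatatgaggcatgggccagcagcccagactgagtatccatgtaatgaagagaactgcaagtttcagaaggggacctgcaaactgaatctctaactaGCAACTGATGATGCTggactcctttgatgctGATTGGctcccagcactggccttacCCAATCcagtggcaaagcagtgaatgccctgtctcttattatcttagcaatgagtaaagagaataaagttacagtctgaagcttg
H2-DMb1 (chr17:34152941-34153240, plus strand): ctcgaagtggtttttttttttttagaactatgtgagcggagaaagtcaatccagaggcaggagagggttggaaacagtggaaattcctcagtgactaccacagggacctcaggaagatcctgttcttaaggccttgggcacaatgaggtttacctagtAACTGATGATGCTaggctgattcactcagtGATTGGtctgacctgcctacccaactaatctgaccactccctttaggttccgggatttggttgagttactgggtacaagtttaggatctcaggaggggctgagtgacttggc
H2-DMa (chr17:34122582-34122881, plus strand): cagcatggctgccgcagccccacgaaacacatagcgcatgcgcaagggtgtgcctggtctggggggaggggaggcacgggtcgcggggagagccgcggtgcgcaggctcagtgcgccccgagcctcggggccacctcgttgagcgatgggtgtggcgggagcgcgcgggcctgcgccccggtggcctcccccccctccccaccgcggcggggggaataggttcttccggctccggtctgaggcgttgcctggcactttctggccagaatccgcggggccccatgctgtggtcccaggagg
The H2-Eb1 window held GCAACTG at position -91, AACTGATGATGCT at -89 and GATTGG at -60, counted from the start, with a further Y box core on the other strand at -35. The window of H2-DMb1, the β chain gene that partners H2-DMa, held AACTGATGATGCT at -92 and GATTGG at -62. The H2-DMa window shown held none of the class II motifs, and a window at another RefSeq start of that gene held GATTGG at -199 alone. Both windows lie inside the span of H2-DMa, 34119693 to 34139101, which has 15 transcripts listed. No other start of this gene was searched, so these windows do not show whether its promoter lacks the motifs. The windows of H2-DMb2 and H2-Oa, not printed, held GATTGG alone, at -91 and -44. On both strands, GATTGG occurred in 16.1%, GCAACNG in 12.7% and AACTGATGATGCT in 0.00913% (3 windows) of all 32851 windows of this length. These 3 windows include those of H2-Eb1 and H2-DMb1, from which the run was taken, so its share is no independent background.

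The reads counted on genes came to 17824306 in the shallowest and 19093204 in the deepest library. Replicates of a group differed by gene length: the deviations of 1 library's genes from the group means had a Spearman correlation with length of 0.193 to 0.782 in size, given without a p because it is taken across genes. The label of an epithelial line was set against marker genes. Of 8 epithelial markers, 3 were listed, with 0 to 8 reads per library for the keratin Krt8, 0 to 2 for Krt18 and 19 to 49 for Krt19, and the adhesion genes Epcam and Cdh1 were not analysed here. Of 8 mesenchymal markers all were listed, and the intermediate filament gene Vim (FPKM 1536 to 2056) and the collagen gene Col1a1 (FPKM 176 to 315) were high in every library, while the surface gene Thy1 had at most 3 reads. The epithelial markers listed were thus low, and the cells are called here by the name of the line. Of 14 leukocyte and antigen-presenting cell markers 6 were listed, the pan-leukocyte gene Ptprc had at most 1 read and the B-cell gene Cd79a at most 5. The receptor genes Csf1r of macrophages and Flt3 of dendritic cell precursors had 7 to 34 and 2 to 13 reads and reached 0.520 and 0.210 FPKM, where Ciita reached 0.20. The summed FPKM of the list was 0.460 to 0.780 in siR_Ctrl and 0.260 to 0.510 in siR_Ctrl + IFN-γ cells, and 0.520 to 0.680 in siR_Nostrill and 0.210 to 0.600 in siR_Nostrill + IFN-γ cells, with a lower median with IFN-γ in both backgrounds. Csf1r, the 1 gene of the list tested, had log2 fold changes with IFN-γ of -0.44 and -1.20 (edgeR adjusted p = 0.656 and 0.0872). Professional antigen-presenting cells express class II genes without IFN-γ, and their part in the values below was not tested. In such bulk samples, fewer cells that express a gene and less of its RNA per cell cannot be told apart.

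Ciita, the class II transactivator, rose with IFN-γ in both siRNA backgrounds, about 4-fold, and stayed at a very low level. Ciita (gene ID 12265, chromosome 16, 10480014 to 10531064, plus strand) had 4, 8 and 8 reads in siR_Ctrl cells and 29, 29 and 27 in siR_Ctrl + IFN-γ cells. It had 7, 6 and 7 reads in siR_Nostrill cells and 24, 25 and 22 in siR_Nostrill + IFN-γ cells. Every IFN-γ library lay above every library without IFN-γ, which in siR_Ctrl cells held for 9.57% and in siR_Nostrill cells for 18.5% of all tested genes. Per length, the mean was 0.0433 ± 0.0115 FPKM in siR_Ctrl, 0.183 ± 0.0153 in siR_Ctrl + IFN-γ, 0.0433 ± 0.00577 in siR_Nostrill and 0.160 ± 0.0173 once siR_Nostrill cells had IFN-γ (SD, n = 3 each). Differential expression was tested on the read counts with edgeR's quasi-likelihood test, fitted to all 12 libraries with Benjamini-Hochberg adjustment over the 11900 genes and called at an adjusted p below 0.05. In siR_Ctrl cells Ciita rose by 2.08 on the log2 scale (standard error 0.25, 95% interval 1.53 to 2.62, edgeR adjusted p = 2.08e-04), and in siR_Nostrill cells by 1.79 (standard error 0.25, interval 1.24 to 2.35, edgeR adjusted p = 8.68e-04). Ciita passed the filter, which asks for about 10 reads, only through its IFN-γ libraries, so its place among the tested genes already rested on that difference. It was the 1 of the 3 tested genes called in each comparison, beside 4.71% of all tested genes called higher with IFN-γ in siR_Ctrl and 5.24% in siR_Nostrill cells.

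The depth behind these values was small. The summed reads of Ciita went from 20 to 85 in siR_Ctrl and from 20 to 71 in siR_Nostrill cells, ratios of 4.29 (exact 95% interval 2.61 to 7.37) and 3.51 (2.11 to 6.09) once scaled by library size. These intervals cover counting error only, since reads without molecular identifiers are not independent molecules. In limma on log2(FPKM + 1), where the added 1 is far above the level of Ciita, the change was 0.18 and 0.15 and was not called (limma adjusted p = 0.123 and 0.141).

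Between the siRNAs Ciita was not called. With IFN-γ its siR_Nostrill libraries lay below the siR_Ctrl libraries without overlap on the log2 CPM scale, as 10.4% of tested genes did. In FPKM the value 0.17 occurred in both groups, and in TPM the value 0.26 did. The log2 difference of Ciita with IFN-γ, siR_Nostrill minus siR_Ctrl, was -0.26 (95% interval -0.75 to 0.22, edgeR adjusted p = 0.636). Without IFN-γ it was 0.02 (-0.86 to 0.91, edgeR adjusted p = 0.976). The interaction, the change with IFN-γ in siR_Nostrill less that in siR_Ctrl cells, was -0.29 (-1.37 to 0.80, edgeR adjusted p = 0.734), an interval that leaves room for a difference of either sign. The order of the mean levels was siR_Ctrl + IFN-γ, then siR_Nostrill + IFN-γ, then both groups without IFN-γ. In the tests, the groups with IFN-γ differed from those without it within each siRNA. On the log2 CPM scale the 2 groups with IFN-γ did not overlap, while in FPKM both held the value 0.17. Their difference did not pass the test, nor did that of the 2 groups without IFN-γ.

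**Figure D1:**
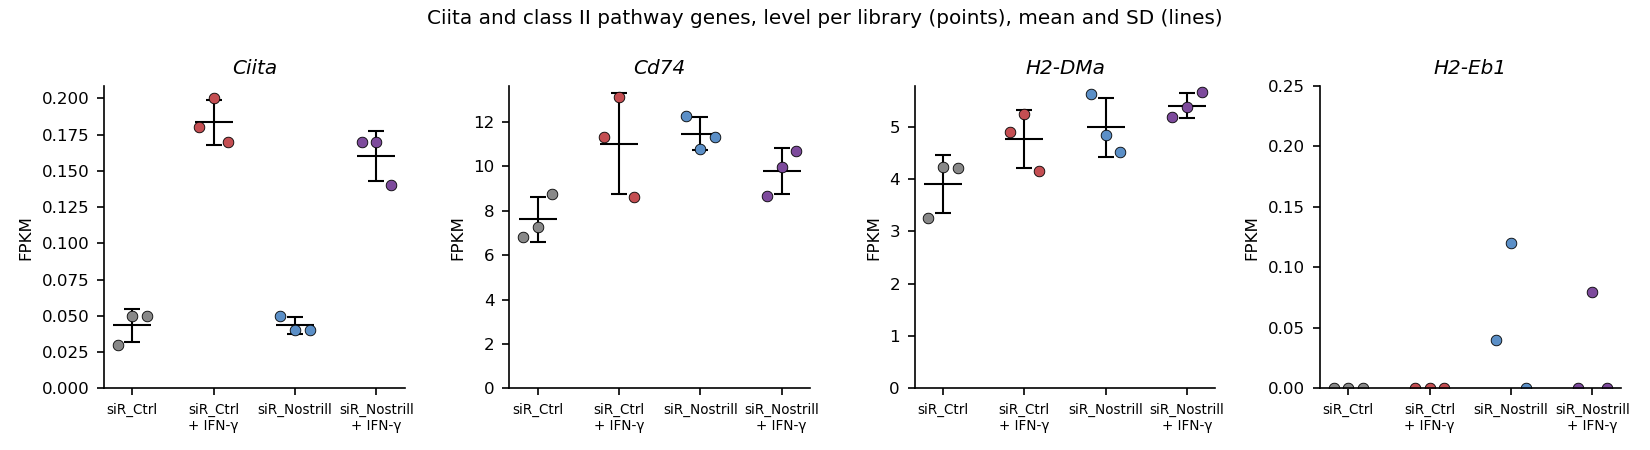
Level of Ciita, Cd74, H2-DMa and H2-Eb1 in FPKM (vertical axis, from 0, a scale for each gene) in the 4 groups, with points for the 3 libraries and lines for the mean and SD (points alone for H2-Eb1). Ciita stays at or below 0.20 FPKM and separates by IFN-γ, while Cd74 and H2-DMa lie between 3.26 and 13.12 FPKM in every group.

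Cd74 had the highest level per length of the 4 listed genes, and its change with IFN-γ did not pass the test in either siRNA background. Cd74 (gene ID 16149, chromosome 18, 60803849 to 60812652, plus strand) encodes the invariant chain, which fills the groove of new class II molecules and guides them to the endosome. Its FPKM was 6.82, 7.28 and 8.75 in siR_Ctrl and 11.34, 13.12 and 8.62 in siR_Ctrl + IFN-γ cells. It was 12.28, 10.79 and 11.35 in siR_Nostrill and 8.66, 9.99 and 10.71 in siR_Nostrill + IFN-γ cells. With IFN-γ, 2 of the 3 siR_Ctrl libraries lay above all untreated siR_Ctrl libraries and replicate 3 lay among them, while all 3 siR_Nostrill libraries lay below those without IFN-γ, as for 16.9% of tested genes. The separation depended on the scale. In TPM the siR_Ctrl groups did not overlap (at most 12.64 without and at least 13.58 with IFN-γ), while the siR_Nostrill groups did. The log2 fold change with IFN-γ was 0.62 in siR_Ctrl cells (standard error 0.19, 95% interval 0.20 to 1.03, unadjusted p = 0.00750, edgeR adjusted p = 0.107) and -0.25 in siR_Nostrill cells (standard error 0.19, interval -0.66 to 0.16, edgeR adjusted p = 0.424). Neither passed the threshold. Every IFN-γ library lay above the untreated mean in siR_Ctrl and below it in siR_Nostrill cells, as for 4.09% of tested genes.

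The siR_Ctrl value of Cd74 turned on single libraries and on the processing. Without siR_Ctrl + IFN-γ replicate 3 it was 0.80 and was called (edgeR adjusted p = 0.0194). Without replicate 2 of that group it was 0.42 and was not called (edgeR adjusted p = 0.363). With all libraries it was called by DESeq2 (0.61, adjusted p = 0.0421) and after the trend with gene length was removed (0.47, edgeR adjusted p = 0.0217). In siR_Ctrl + IFN-γ replicate 3 Cd74 lay 0.40 below its group mean on the log2 CPM scale, and the correlation of the library's deviations with length was 0.733 in size. In replicate 2 of that group Cd74 lay 0.38 above the mean, and the correlation was 0.750 in size. Over all other ways of processing the adjusted p ran up to 0.371, and over libraries left out up to 0.363.

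Without IFN-γ, Cd74 stood higher in siR_Nostrill than in siR_Ctrl cells in each of the 3 against 3 libraries, by 0.64 on the log2 scale (standard error 0.19, 95% interval 0.22 to 1.05, unadjusted p = 0.00620), and the edgeR adjusted p was 0.224. Groups did not overlap in that direction for 8.70% of all tested genes, and 0.218% of genes were called. With IFN-γ the difference between siRNAs was -0.23 (interval -0.64 to 0.18, edgeR adjusted p = 0.620). The interaction was -0.87 (standard error 0.27, interval -1.45 to -0.28, unadjusted p = 0.00739, edgeR adjusted p = 0.430). The interaction called 0 of the 11900 genes in edgeR, where 1277 genes, or 10.7%, had an unadjusted p below 0.05, and 0 in DESeq2, where 1471 did.

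H2-DMa did not pass the test in any comparison. It encodes the α chain of H2-DM, the chaperone that exchanges the invariant chain fragment for peptide. Its FPKM was 3.26, 4.24 and 4.21 in siR_Ctrl, 4.90, 5.24 and 4.15 in siR_Ctrl + IFN-γ, 5.62, 4.84 and 4.52 in siR_Nostrill and 5.19, 5.37 and 5.66 in siR_Nostrill + IFN-γ cells. The separation of the groups depended on the scale. On the log2 CPM scale the groups compared overlapped each time. In FPKM the siR_Nostrill libraries lay above the siR_Ctrl libraries without IFN-γ. In TPM no groups compared overlapped. With IFN-γ, TPM rose from at most 6.07 to at least 6.54 in siR_Ctrl cells. In siR_Nostrill cells it rose from at most 7.47 to at least 8.01. The siR_Nostrill libraries lay above the siR_Ctrl libraries in TPM with and without IFN-γ. No share of all tested genes is given for TPM. The log2 fold change with IFN-γ was 0.26 in siR_Ctrl cells (95% interval -0.08 to 0.60, edgeR adjusted p = 0.509) and 0.10 in siR_Nostrill cells (-0.23 to 0.44, edgeR adjusted p = 0.684). A rise of the size seen for Ciita lay outside both intervals. Between siRNAs the difference was 0.33 without IFN-γ (-0.01 to 0.67, edgeR adjusted p = 0.360) and 0.17 with it (-0.16 to 0.51, edgeR adjusted p = 0.650). H2-DMa (gene ID 14998, chromosome 17, 34119693 to 34139101 in GRCm38.p6) is listed on an alternate-locus scaffold, its transcripts have 6 further placements, and its count was fractional in 9 libraries, so reads may have been shared with copies of the same sequence.

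H2-Eb1, the β chain of the surface molecule I-E, was at or next to 0 in all 12 libraries. It had 0 reads in each siR_Ctrl and each siR_Ctrl + IFN-γ library, 1, 3 and 0 reads in siR_Nostrill and 0, 2 and 0 in siR_Nostrill + IFN-γ cells. The limit that a count of 0 allows, 3 reads, came to 0.157 to 0.168 CPM per library, and no library exceeded it. No fold change was computed, and a change with IFN-γ was not detectable at this depth. H2-Eb1 (gene ID 14969, chromosome 17, 34305867 to 34316674) is also listed on an alternate-locus scaffold, with 3 further placements of a transcript. Its promoter window held the whole run of motifs shown above, while the window of H2-DMb1, which held AACTGATGATGCT and GATTGG too, belonged to a gene at about 10 FPKM.

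Because all genes of a library share its depth, Ciita was compared with its targets inside each library. The difference of log2(FPKM + 0.1) between Ciita and the target was taken per library, and its change with IFN-γ was tested by an exact two-sided permutation of the IFN-γ labels within each siRNA, which has 400 arrangements and cannot give a p below 0.005. Against Cd74 the difference lay between -6.37 and -5.62 without and between -5.49 and -5.01 with IFN-γ, without overlap. Ciita gained 0.78 on Cd74 (exact permutation p = 0.005, the smallest possible), 0.47 in siR_Ctrl and 1.09 in siR_Nostrill cells. Against H2-DMa the difference lay between -5.25 and -4.69 without and between -4.58 and -3.98 with IFN-γ. Ciita gained 0.72 on H2-DMa (exact permutation p = 0.005), 0.70 in siR_Ctrl and 0.74 in siR_Nostrill cells. So at this IFN-γ time and with 0.1 added to FPKM, the differences with IFN-γ lay above those without it in both pairs, 2 pairs having been tested. Ciita passed the filter on low counts only through its IFN-γ libraries, so these gains add no separate evidence of its rise. H2-DMb1 was not paired with Ciita.

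The size of these gains depended on the constant added to FPKM, since Ciita lies near 0. With 0.01 in place of 0.1 the gain was 1.63 over Cd74 and 1.57 over H2-DMa, and on reads with 0.5 added, an alternative chosen after seeing the data, 1.74 and 1.72 (exact permutation p = 0.005 each). With 1 added, where Ciita hardly moves, they were 0.039 and -0.00017 (exact permutation p = 0.785 and 1). H2-Eb1 was not paired, as it never exceeded 3 reads. In level per length Ciita stood far below its targets also with IFN-γ, at a median of 0.180 FPKM against 11.3 for Cd74 and 4.90 for H2-DMa in siR_Ctrl + IFN-γ cells.

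**Figure D2:**
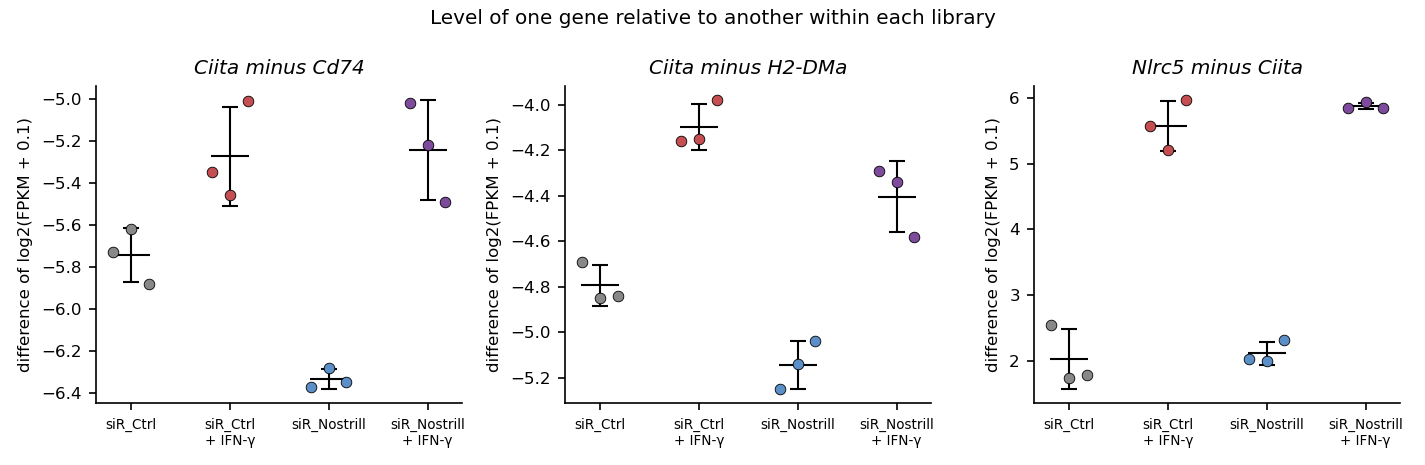
Difference in log2(FPKM + 0.1) between the genes named above each panel (vertical axis) in each library of the 4 groups, with the mean and SD. In each panel the IFN-γ libraries lie above those without, and with 0.1 added to FPKM Nlrc5 gained 3.66 on Ciita.

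The class I counterpart moved far more. Nlrc5 had 53 to 87 reads in siR_Ctrl and 1523 to 2288 in siR_Ctrl + IFN-γ libraries, and it rose by 4.85 on the log2 scale (standard error 0.19, edgeR adjusted p = 8.33e-09). In siR_Nostrill cells it rose by 4.83 (standard error 0.18, edgeR adjusted p = 7.96e-09). Nlrc5 gained 3.66 on Ciita within libraries, from a difference of 1.74 to 2.55 without to 5.20 to 5.96 with IFN-γ (exact permutation p = 0.005, a pair added after seeing the data). The size of this gain also depended on the processing, as Ciita lies near 0. It ran from 2.94 to 3.66 over the other ways of processing and from 3.56 to 3.79 over the libraries left out. Of the 9 class I genes and Nlrc5, 9 rose in siR_Ctrl cells, beside 4.71% of all tested genes called higher, with a median log2 fold change of 3.04 beside -0.01 for all tested genes. In siR_Nostrill cells 7 rose, beside 5.24%, with a median of 2.27 beside -0.00. The peptide transporter gene Tap1 rose from 2.64 ± 0.953 to 104 ± 4.33 FPKM in siR_Ctrl cells (SD, n = 3 each) and by 5.37 on the log2 scale, and its partner Tap2 by 3.05. The immunoproteasome subunit gene Psmb9 rose by 5.32 in siR_Ctrl and 4.86 in siR_Nostrill cells. The class I heavy chains H2-K1 and H2-D1, named for missing the threshold after their values were seen, had values of 0.43 and 0.44 in siR_Nostrill cells (edgeR adjusted p = 0.106 and 0.122), and both were called there with the length trend removed (edgeR adjusted p = 1.95e-06 and 1.57e-05), with only the groups compared (0.0206 and 0.0168) and in both limma fits (0.0226 to 0.0481). H2-K1 was called there also by DESeq2 (adjusted p = 0.0474) and without siR_Ctrl replicate 1 (edgeR, 0.0485), while H2-D1 lost its call in siR_Ctrl cells with only the groups compared (0.128).

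Of 6 further class II genes 3 were listed and 1, H2-DMb1, was tested. H2-DMb1, the β chain of H2-DM, had 9.86 ± 1.47 FPKM in siR_Ctrl and 10.6 ± 1.78 in siR_Ctrl + IFN-γ cells, and 10.9 ± 0.561 and 10.5 ± 1.52 in the siR_Nostrill groups (SD, n = 3 each). Its log2 fold change with IFN-γ was 0.17 in siR_Ctrl (95% interval -0.25 to 0.59, edgeR adjusted p = 0.750) and -0.08 in siR_Nostrill cells (-0.49 to 0.34, edgeR adjusted p = 0.821). H2-DMb2, a near copy of H2-DMb1 with which reads could be shared, stayed at or below 0.400 FPKM. H2-Oa, a chain of H2-O, which restrains H2-DM, had 0.0700 to 0.270 FPKM in siR_Ctrl and 0.330 to 0.510 in siR_Ctrl + IFN-γ cells, without overlap but on 9 and 18 summed reads, and 0.130 to 0.330 and 0.0700 to 0.270 FPKM in the siR_Nostrill groups. Neither gene was tested.

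On the route from the IFN-γ receptor to Ciita, 4 of 8 genes rose in each siRNA background and none fell, with medians of 0.63 and 0.49, beside 4.71% and 5.24% of all tested genes called higher and medians of -0.01 and -0.00. Irf1, which acts at the IFN-γ-responsive promoter of Ciita, rose by 3.57 on the log2 scale in siR_Ctrl (from 50.9 ± 4.05 to 578 ± 15.6 FPKM; SD, n = 3 each) and by 3.23 in siR_Nostrill cells (edgeR adjusted p = 8.50e-10 and 2.02e-09). Irf2, which can occupy the same kind of element, rose by 1.25 and 1.41, and Socs1, an inhibitor of JAK kinases, rose 7.99-fold and 7.52-fold. The remaining gene called was Usf1 in siR_Ctrl (0.88) and Jak2 in siR_Nostrill cells (0.64), both named after their values were seen. Usf1 was not called without siR_Ctrl replicate 3 or without siR_Ctrl + IFN-γ replicate 2 (edgeR adjusted p = 0.0635 and 0.0504) or with only the groups compared (0.106), and Jak2 not without replicate 2 of siR_Nostrill or of siR_Nostrill + IFN-γ (0.0663 and 0.0564). With the length trend removed both were called also in the other background (edgeR adjusted p = 0.00333 for Usf1 and 1.14e-04 for Jak2), as was Jak2 in siR_Ctrl cells without siR_Ctrl replicate 1 (0.0267). Ciita itself moved by about 2, between Irf2 and Socs1 in both backgrounds.

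Between the siRNAs, 1 gene of the route was called. Ifngr2, a chain of the IFN-γ receptor, was higher in siR_Nostrill + IFN-γ than in siR_Ctrl + IFN-γ cells, 50.9 ± 2.22 against 33.5 ± 0.389 FPKM (SD, n = 3 each), by 0.54 on the log2 scale (standard error 0.09, edgeR adjusted p = 0.0375), where 0.429% of tested genes were called. It was not called without any of 9 of the 12 libraries, with edgeR adjusted p from 0.0622 to 0.175, namely siR_Ctrl replicates 2 and 3, siR_Nostrill replicate 2 and every library with IFN-γ. With only the groups compared in the fit, its adjusted p was 0.157, and with the replicate block 0.0503. Without IFN-γ Ifngr2 stood at 43.6 ± 4.08 FPKM in siR_Nostrill and 33.9 ± 2.25 in siR_Ctrl cells (SD, n = 3 each), without overlap, as for 8.70% of tested genes. The difference was 0.39 on the log2 scale (edgeR adjusted p = 0.150), which DESeq2 called (adjusted p = 0.00503). The interaction was 0.15 (edgeR adjusted p = 0.514), so the difference was not shown to depend on IFN-γ.

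Of 7 factors that hold the class II promoter, 1 rose in each siRNA background and none fell, with medians of -0.01 and 0.18, beside 4.71% and 5.24% of all tested genes called higher, while 2 and 3 had an unadjusted p below 0.05, beside 14.6% and 21.9%. Nfyb, a subunit of the Y box factor NF-Y, rose by 0.41 in siR_Ctrl cells (standard error 0.08, edgeR adjusted p = 0.0103) and was not called with only the groups compared (0.147). In siR_Nostrill cells its value was 0.18 (edgeR adjusted p = 0.225), called with the length trend removed (0.22, edgeR adjusted p = 0.0265). Between siRNAs with IFN-γ Nfyb had -0.31 (edgeR adjusted p = 0.110), called by DESeq2 (adjusted p = 0.00761) and with the length trend removed (edgeR adjusted p = 0.00778). Rfx5, the DNA-binding subunit of the RFX complex, had 4.31, 3.99 and 5.09 FPKM in siR_Nostrill and 8.64, 8.42 and 7.54 in siR_Nostrill + IFN-γ cells. It rose there by 0.86 on the log2 scale (standard error 0.20, edgeR adjusted p = 0.0223), and its value in siR_Ctrl cells was 0.56 (standard error 0.20, edgeR adjusted p = 0.176). The interaction of Rfx5 was 0.31 (edgeR adjusted p = 0.526), so the responses were not shown to differ. The Rfx5 call was lost without siR_Nostrill replicates 1 or 2 or any siR_Nostrill + IFN-γ library (edgeR adjusted p from 0.0506 to 0.113) and in limma on log2(FPKM + 1) and log2(FPKM + 0.1) (0.0618 and 0.0723), and gained in siR_Ctrl cells when replicate 1 of siR_Ctrl or replicate 2 of siR_Ctrl + IFN-γ was left out (0.0375 and 0.0471) or with the length trend removed (0.00329). Rfxap, another subunit of the RFX complex, named after its values were seen, had -0.47 with IFN-γ in siR_Nostrill cells (standard error 0.15, edgeR adjusted p = 0.0956). It was called there by DESeq2 (adjusted p = 0.0360), with only the groups compared (0.0255), by limma on log2(FPKM + 1) (0.0477), with the length trend removed (0.0144) and without siR_Ctrl replicate 1 (0.0492).

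Of 9 coactivators known to work with CIITA, 0 were called in siR_Ctrl and 1 in siR_Nostrill cells by edgeR (0 and 4 at an unadjusted p below 0.05). For this list and those that follow, the shares of all tested genes were again 4.71% and 5.24% called higher and 14.6% and 21.9% at an unadjusted p below 0.05. The acetyltransferase gene Kat2b rose by 0.64 in siR_Nostrill cells (standard error 0.15, edgeR adjusted p = 0.0242), a call lost without any siR_Nostrill library or without siR_Nostrill + IFN-γ replicates 1 or 2 (0.0558 to 0.113). Kat2b was called in siR_Ctrl cells too with the length trend removed (0.34, edgeR adjusted p = 0.00505). Between siRNAs without IFN-γ Kat2b had -0.55 (edgeR adjusted p = 0.191). That was called by DESeq2 (adjusted p = 0.0419) and with the length trend removed (edgeR adjusted p = 0.00836). With IFN-γ the difference was -0.16 (edgeR adjusted p = 0.684). Of 7 tested genes of class II antigen processing and turnover, 0 were called with IFN-γ in either background (0 and 2 at an unadjusted p below 0.05), with medians of 0.05 and -0.13. Ctss and Ctsl were named after their values were seen. Ctss, the cathepsin that trims the invariant chain in professional antigen-presenting cells, had at most 1 read in any library, while Ctsl, its counterpart in other cells, stood at 350 to 603 FPKM. Of 3 tested T-cell costimulation genes 1 rose in each background: Cd274, the inhibitory ligand PD-L1, by 5.40 in siR_Ctrl and 5.61 in siR_Nostrill cells (edgeR adjusted p = 5.55e-10 and 4.34e-10). All 3 had an unadjusted p below 0.05 in both backgrounds. Cd40, a receptor through which T cells activate antigen-presenting cells, named after its values were seen, had 32 and 50 summed reads in siR_Ctrl and siR_Ctrl + IFN-γ and 44 and 22 in siR_Nostrill and siR_Nostrill + IFN-γ cells. Its log2 fold change with IFN-γ had a 95% interval of 0.03 to 1.27 in siR_Ctrl and of -1.64 to -0.36 in siR_Nostrill cells (edgeR adjusted p = 0.309 and 0.0669), and the second was called in limma on log2(FPKM + 0.1) (adjusted p = 0.0175).

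**Figure D3:**
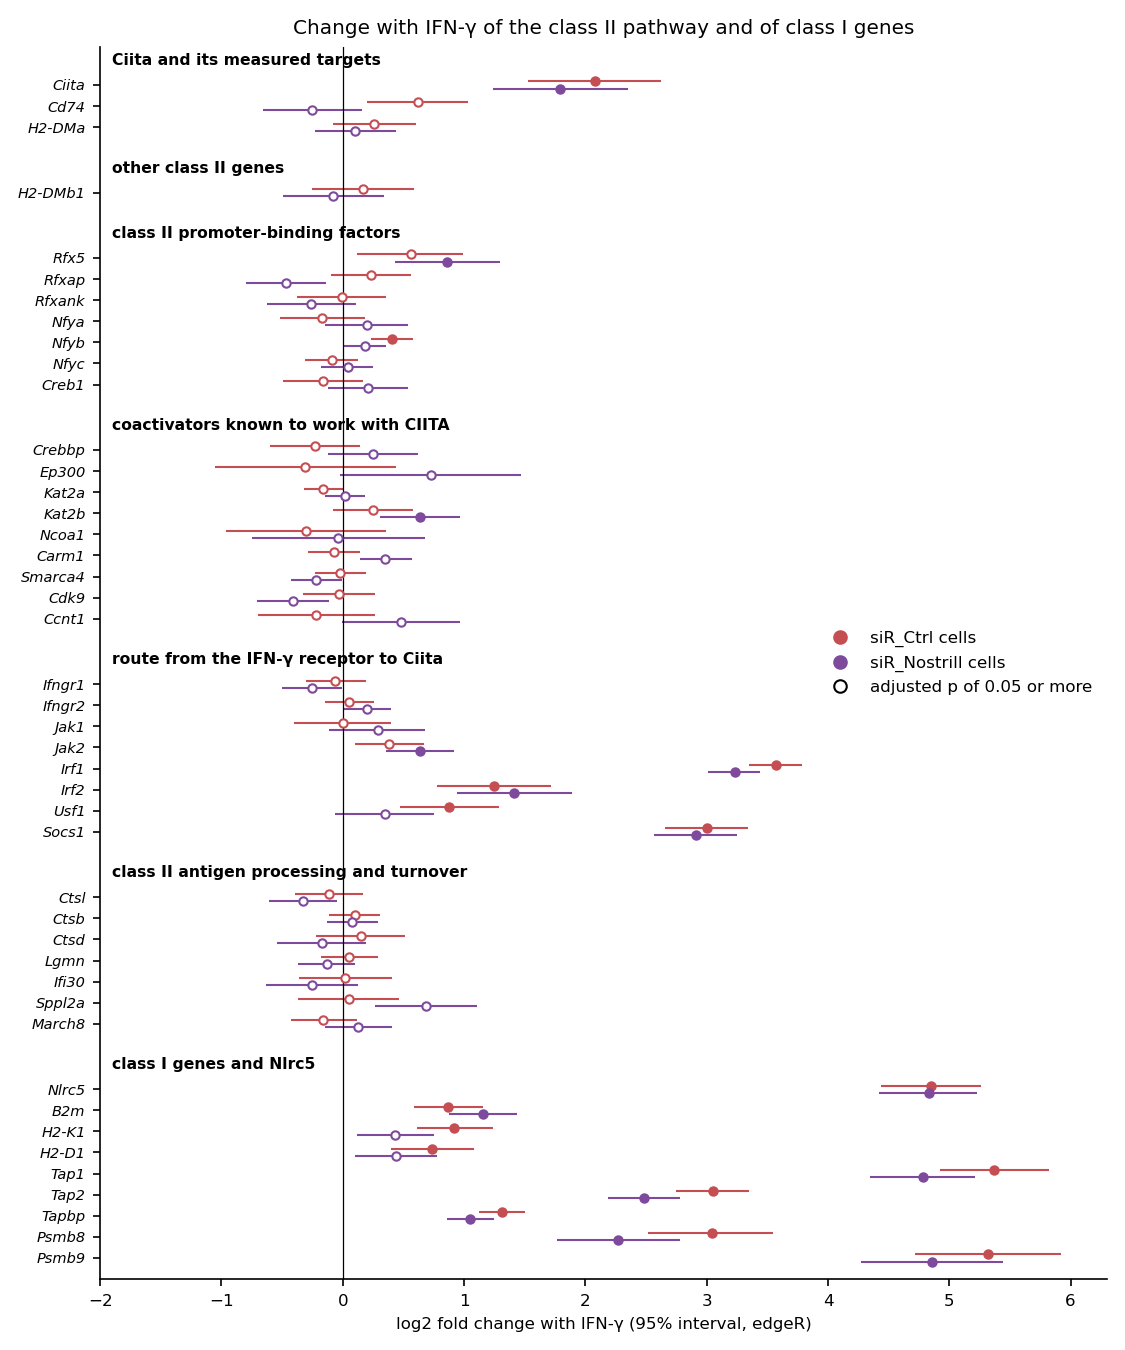
Log2 fold change with IFN-γ (horizontal axis, with 95% intervals from edgeR) of the tested genes of each list in siR_Ctrl and siR_Nostrill cells; open circles did not pass an adjusted p of 0.05. Ciita stands at 2.08 and 1.79, Cd74 at 0.62 and -0.25, H2-DMa at 0.26 and 0.10, and Nlrc5, Tap1 and Psmb9 near 5.

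The genes whose pattern over the 12 libraries was most like that of Ciita were sought by the lowest root mean square difference of log2 CPM, each gene centred on its own mean. They were Serpinb1a (0.17), Cebpd (0.18), Upp1 (0.20), 1110038F14Rik (0.22) and Idnk (0.22), beside a median of 0.91 over all other tested genes. All 5 were expressed well above Ciita, from 1.65 FPKM for Serpinb1a to 26.8 for 1110038F14Rik in siR_Ctrl cells. Serpinb1a, an inhibitor of neutrophil proteases, had log2 fold changes of 2.09 and 1.68 with IFN-γ in siR_Ctrl and siR_Nostrill cells, and Cebpd, a transcription factor of the acute phase response, of 2.05 and 1.43. The genes most like Cd74 were Polr3gl (0.12), Mcub (0.14), Rab13, Ifi27 and Arl16 (0.15 each), beside a median of 0.38. None of these 5 was called with IFN-γ, and Ifi27, an interferon-responsive gene, had values of 0.62 and -0.14. No class II gene was among the nearest 5 to Ciita or to Cd74.

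**Figure D4:**
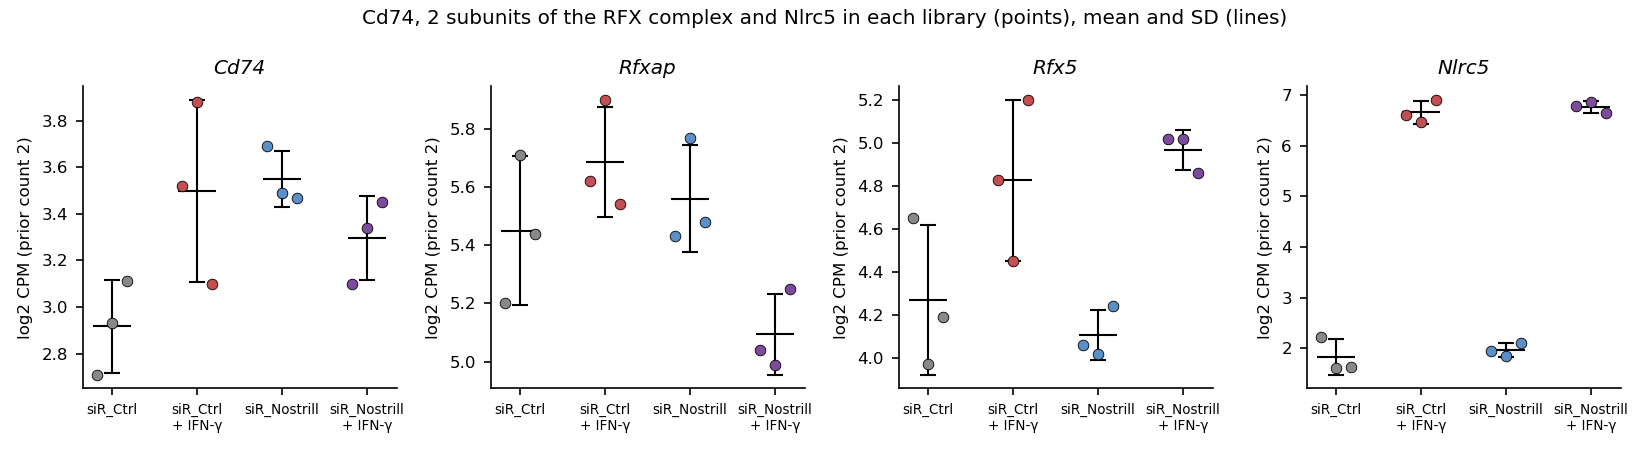
Log2 CPM (prior count 2, vertical axis, a scale for each gene) of Cd74, Rfxap, Rfx5 and Nlrc5 in each library of the 4 groups, with the mean and SD. With IFN-γ the 3 Cd74 and the 3 Rfxap values lie above the untreated mean in siR_Ctrl and below it in siR_Nostrill cells, and Nlrc5 separates by IFN-γ alone.

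**Figure D5:**
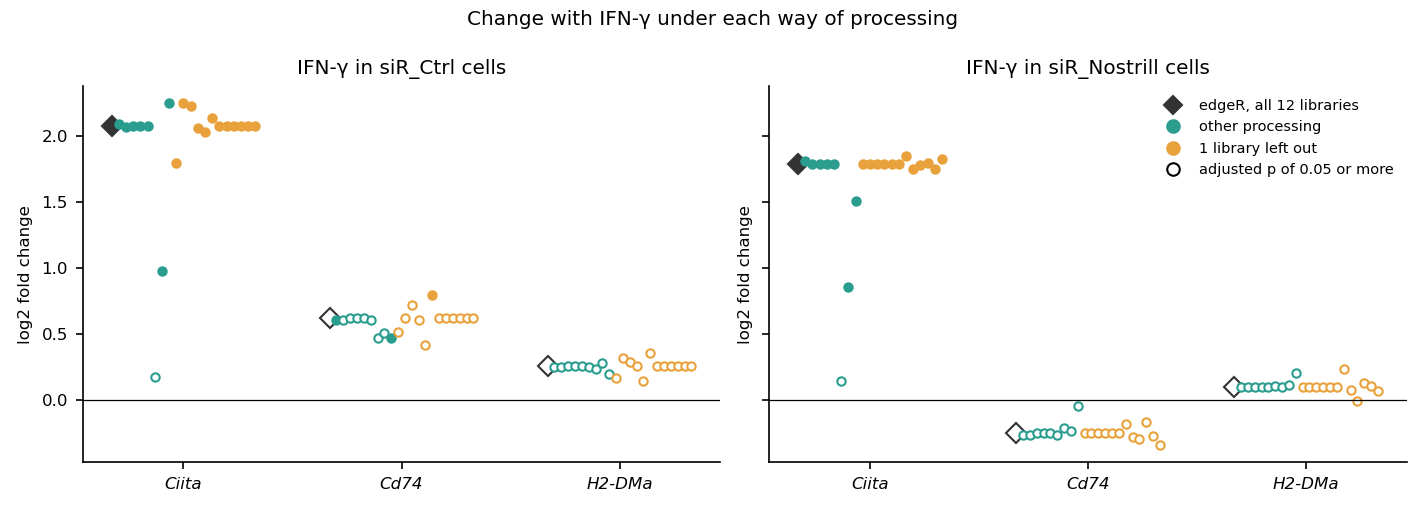
Log2 fold change with IFN-γ (vertical axis) of Ciita, Cd74 and H2-DMa under each way of processing and with each library left out, in siR_Ctrl (left) and siR_Nostrill cells (right); open symbols did not pass an adjusted p of 0.05. Ciita falls from 2.08 to 0.18 in siR_Ctrl cells where 1 is added to FPKM, and Cd74 lies above 0 in siR_Ctrl and below 0 in siR_Nostrill cells throughout.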

How the data were processed

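RNA of 12 libraries was measured, 3 for each of 4 groups taken from the sample labels, with oligo(dT)-enriched mRNA on a DNBSEQ platform. What the authors deposited is an estimated count per gene and library, which is not normalized, and the authors also deposited an FPKM value, scaled for length and mapped reads, and a TPM value. The authors cleaned reads with SOAPnuke and used HISAT2 and Bowtie2 with GRCm38.p6. The counting tool was not given in the sources used here. FPKM has 2 decimals, so low values such as those of Ciita are coarse. The members and the gene lists were chosen with earlier results of these data known, and some genes of these lists are not reported here.

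Counts were rounded and tested with edgeR 4.0.16 in R 4.3.3 (TMM, default filter on low counts, group means of all 12 libraries, Benjamini-Hochberg adjustment, threshold 0.05). Standard errors were taken from the p-value. Alternatives were DESeq2 1.42.0, its size factors in edgeR, no filter or one at a mean of 1 CPM, a fit to only the groups compared, a replicate block, limma 3.58.1 on log2(FPKM + 1) or log2(FPKM + 0.1), removal of the trend with gene length, and each library left out. Pairs of genes were tested by exact permutation (Python 3.11.15). The fits and the permutation test were tested on simulated data. Genes named from a list were its called genes with the largest changes with IFN-γ, at most 4 a list, and any called between siRNAs, and other names are marked as chosen after their values were seen. P-values measure only the spread between these libraries.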

Additional observations from a re-analysis of the deposited data

Results flagged for a closer look

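With IFN-γ, the libraries of Cd74 lay on opposite sides of the untreated mean in the 2 siRNA backgrounds, though neither change passed the test. On the log2 CPM scale, its 3 siR_Ctrl + IFN-γ libraries lay 0.18 to 0.97 above the siR_Ctrl mean, and its 3 siR_Nostrill + IFN-γ libraries 0.10 to 0.45 below the siR_Nostrill mean (-0.45 to -0.10), a pattern that 4.09% of the 11900 tested genes showed in these directions. The interaction was -0.87 (edgeR, unadjusted p = 0.00739, adjusted p = 0.430), which fails the correction. It was -0.51 with the length trend removed (adjusted p = 0.172), and over the libraries left out it ran from -1.05 to -0.67.

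Rfxap, a subunit of the RFX complex that holds the X box, had libraries on opposite sides in the same way, and neither of its changes passed either (edgeR adjusted p = 0.564 and 0.0956). Its FPKM was 20.05, 26.48 and 23.02 in siR_Ctrl, 25.34, 27.81 and 24.63 in siR_Ctrl + IFN-γ, 21.68, 27.40 and 24.21 in siR_Nostrill and 17.49, 16.69 and 19.53 in siR_Nostrill + IFN-γ cells. The deviations from the untreated mean were 0.09 to 0.45 and -0.57 to -0.31 on the log2 CPM scale. The interaction was -0.70 (edgeR, unadjusted p = 0.00719, adjusted p = 0.430). With IFN-γ, Rfxap differed between siRNAs by -0.60 (edgeR adjusted p = 0.101), and this was called by DESeq2 (adjusted p = 0.00962) and with the length trend removed (edgeR adjusted p = 0.00384).

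Of the other tested genes among the members and the gene lists, 3 had libraries on opposite sides of the untreated means, and none passed the test of the interaction. The share of 4.09% of all tested genes covers the directions of Cd40 and Krt19, and no share is given for those of Crebbp. For Cd40 the deviations were 0.50 to 0.70 in siR_Ctrl and -1.09 to -0.60 in siR_Nostrill cells and the interaction was -1.65 (edgeR, unadjusted p = 0.00140, adjusted p = 0.430), on 6 to 17 reads per library. With IFN-γ, Cd40 differed between siRNAs by -1.17 (edgeR adjusted p = 0.0899). This was called with the length trend removed (-1.11, edgeR adjusted p = 0.0257). For the keratin gene Krt19 the interaction was -0.74 (edgeR adjusted p = 0.437), and for the coactivator gene Crebbp, with the directions exchanged, 0.48 (edgeR adjusted p = 0.430).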

How the results depend on the processing

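The rise of Ciita with IFN-γ kept its direction in both siRNA backgrounds under every setting in which it was tested. It lost its call in limma on log2(FPKM + 1), at 0.18 in siR_Ctrl and 0.15 in siR_Nostrill cells, where the added 1 exceeds its level. It was not tested with a filter of 1 CPM. Its changes ran from 1.80 to 2.25 and from 1.75 to 1.85 over the libraries left out. The gain of Ciita over Cd74 fell to 0.039, and that over H2-DMa changed sign to -0.00017, with 1 added to FPKM. Cd74 in siR_Ctrl cells was called by DESeq2 (0.61) and with the length trend removed (0.47), and ran from 0.42 to 0.80 over the libraries left out. Other changes of sign occurred at values near 0 that were not called: Ciita between siRNAs without IFN-γ (-0.26 to 0.20 over the libraries left out), H2-DMa with IFN-γ in siR_Nostrill cells (-0.0055 to 0.24) and the interaction of H2-DMa with the length trend removed (0.011). The causes were not tested. The counts of called genes were 649 and 807 with IFN-γ in siR_Ctrl and siR_Nostrill cells, and 26 and 51 between siRNAs without and with IFN-γ. With the length trend removed they were 1322, 2257, 404 and 1540, with only the groups compared 341, 1997, 0 and 0, and DESeq2 called 1364 with IFN-γ in siR_Nostrill cells and 280 and 607 between siRNAs. Between siRNAs, limma on log2(FPKM + 0.1) called 13 and 29, and with IFN-γ limma on log2(FPKM + 1) called 128, no filter 30 and the replicate block 32. Over the libraries left out the counts ran from 489 to 589, 491 to 1138, 0 to 37 and 0 to 72, and the interaction gave 0 throughout. Same-numbered libraries did not deviate together in a steady way (correlations from -0.495 to 0.725), and differently numbered ones ranged from -0.812 to 0.769. As the deviations also went with gene length, these values cannot tell whether the numbers pair cultures. With the replicate block, the gains of Ciita over Cd74 and H2-DMa were 0.78 and 0.72 (exact sign-flip permutation p = 0.0312 each), and no call of Ciita, Cd74 or H2-DMa changed, while Ifngr2 between siRNAs with IFN-γ lost its call (adjusted p = 0.0503). Ciita rests on 20 to 85 reads per group, which sets the width of its counting intervals.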
